A study of Mus musculus with 4 samples.

Results

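The genes described here are 10 outputs and feedback regulators of the RAS-ERK pathway, read by symbol from the count tables of mouse embryonic stem cells. They are the dual-specificity phosphatase genes Dusp4, Dusp5 and Dusp6, the Sprouty genes Spry1, Spry2 and Spry4, the Spred genes Spred1 and Spred2, and the ETS factor genes Etv4 and Etv5. All 10 were among the 24428 genes of the tables, and all 10 entered the test. The study compared stem cells of strain 129SvEv that carried a wild-type Smarca4-GFP fusion in both groups and differed in a V5-tagged Smarca4 fusion, which was G784E in one group and wild-type (WT) in the other. Smarca4 is the ATPase of the BAF chromatin remodelling complex. Cells at passage 15 to 20 were cultured in DMEM with 15% serum and LIF and were not treated. Each group had 2 poly(dT)-selected RNA libraries, numbered 1 and 2. Nothing in the labels says how many clones the cells came from or that the replicates were separate cultures, so the p-values reflect how far these libraries differ, possibly for technical reasons alone.

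Fibroblast growth factors act in embryonic stem cells through receptor tyrosine kinases, RAS, RAF and MEK to activate ERK kinases, a route that is known to help cells leave naive pluripotency and to promote primitive endoderm. ERK activity is limited by its own target genes. DUSP proteins remove phosphates from ERK, Sprouty proteins act on signalling below the receptor, and Spred proteins bring neurofibromin to RAS. ETV4 and ETV5 are ETS transcription factors whose genes are induced by FGF signalling and are widely used as readouts of it.

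The DNA letters before an annotated start are shown for 3 of these genes. The reason is that the repressor capicua (CIC), which ERK signalling inactivates, is known to bind short sites near ETV genes. The sequences are from RefSeq, build GRCm38.p6, which had promoter windows for 7 of the 10 genes and 2 starts for Etv5. Each run covers the 250 bases before an annotated start, 5′ to 3′ on the gene's strand, and no exon of the GENCODE annotation lies in these 3 windows. Capitals mark TGAATGA on either strand, also with C as its second letter, G as its last letter or both, a choice of letters made after the sequences had been seen. The windows are chr16:22438369-22438618 (minus strand, the second start of Etv5), chr10:99262981-99263230 (plus strand, Dusp6) and chr14:105896820-105897069 (minus strand, Spry2).
Etv5: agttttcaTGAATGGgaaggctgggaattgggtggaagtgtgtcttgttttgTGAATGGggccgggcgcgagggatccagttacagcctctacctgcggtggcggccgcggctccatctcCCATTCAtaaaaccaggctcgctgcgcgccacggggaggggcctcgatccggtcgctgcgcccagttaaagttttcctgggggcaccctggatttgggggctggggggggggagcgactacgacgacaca
Dusp6: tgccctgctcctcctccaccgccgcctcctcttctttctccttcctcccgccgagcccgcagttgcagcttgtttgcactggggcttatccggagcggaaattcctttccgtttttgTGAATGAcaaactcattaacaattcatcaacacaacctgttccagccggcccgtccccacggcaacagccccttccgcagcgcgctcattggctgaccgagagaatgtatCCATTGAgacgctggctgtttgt
Spry2: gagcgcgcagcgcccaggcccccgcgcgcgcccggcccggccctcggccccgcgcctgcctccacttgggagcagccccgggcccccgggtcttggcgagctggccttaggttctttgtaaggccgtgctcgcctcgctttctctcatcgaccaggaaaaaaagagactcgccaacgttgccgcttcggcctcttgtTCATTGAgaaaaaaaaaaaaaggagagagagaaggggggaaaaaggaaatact
The Etv5 window held 3 matches, which began 242, 198 and 130 bases before the start. The Dusp6 window held 2, beginning 133 and 23 bases before the start, and the Spry2 window held 1, beginning 53 bases before it. The Dusp6 and Spry2 starts are also GENCODE starts. The Etv5 start used here lies 1202 bases downstream of the nearest GENCODE start, which is that of the other Etv5 window. The printed Etv5 window therefore lies after that GENCODE start and not before it. Among all 32851 promoter windows of this length, 9.53% held at least 1 match, 0.767% at least 2 and 0.0974% at least 3. The 3 printed windows are those of the 8 that held a match and no GENCODE exon. For that reason, and because the letters were chosen after the sequences had been seen, these shares do not measure how unusual the 3 are. Dusp5 also held 1 match, while the other Etv5 window and those of Spry1, Spred1 and Spred2 held none. The ETS core CCGGAA, found in 12% of all windows, and the AP-1 site TGANTCA (N is any base), found in 6.75%, were in none of the 8 windows. The half-site TGACGT, found in 6.47% of all windows, was in those of Dusp5 and Spred2. A match is a stretch of letters and not a measured binding site.

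Of the 10 genes, Dusp4 was the 1 that differed between G784E and WT, 2.47-fold lower in G784E, in edgeR's quasi-likelihood test with Benjamini-Hochberg adjustment over all genes. The remaining 9 did not pass that test. Among them, Spred2, Etv5, Etv4, Spry4 and Spry2 were higher in both G784E libraries than in either WT library, by 1.31-fold to 1.66-fold. Of 15763 tested genes, 2.56% passed in either direction, 1.89% lower in G784E and 0.672% higher. No gene of the 10 passed as higher in edgeR, while 4 had an unadjusted p under 0.05 and lay higher, against 5.14% of tested genes. DESeq2 and limma-voom each called 2 of the 10 as higher, Spred2 and Etv5. Over all genes, limma-voom called 186 of 15763 as higher. DESeq2 called 108 as higher, and it gave no adjusted p to part of the 15763, Dusp5 among them. The libraries of the 2 groups did not overlap for 7 of the 10 genes, 5 higher and 2 lower in G784E, against 19.4% of tested genes in each direction. The median log2 fold change of the 10 was 0.29, and that of all tested genes was -0.0016. By class, the medians were -0.40 for the DUSP genes, 0.39 for the Sprouty genes, 0.30 for the Spred genes and 0.65 for the ETV genes. The DUSP median is the value of Dusp5, a gene of 10 to 17 counts per library. With a library left out, the DUSP median ran from -0.61 to -0.15, the Sprouty median from 0.20 to 0.55, the Spred median from 0.13 to 0.50 and the ETV median from 0.52 to 0.81.

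**Figure D1:**
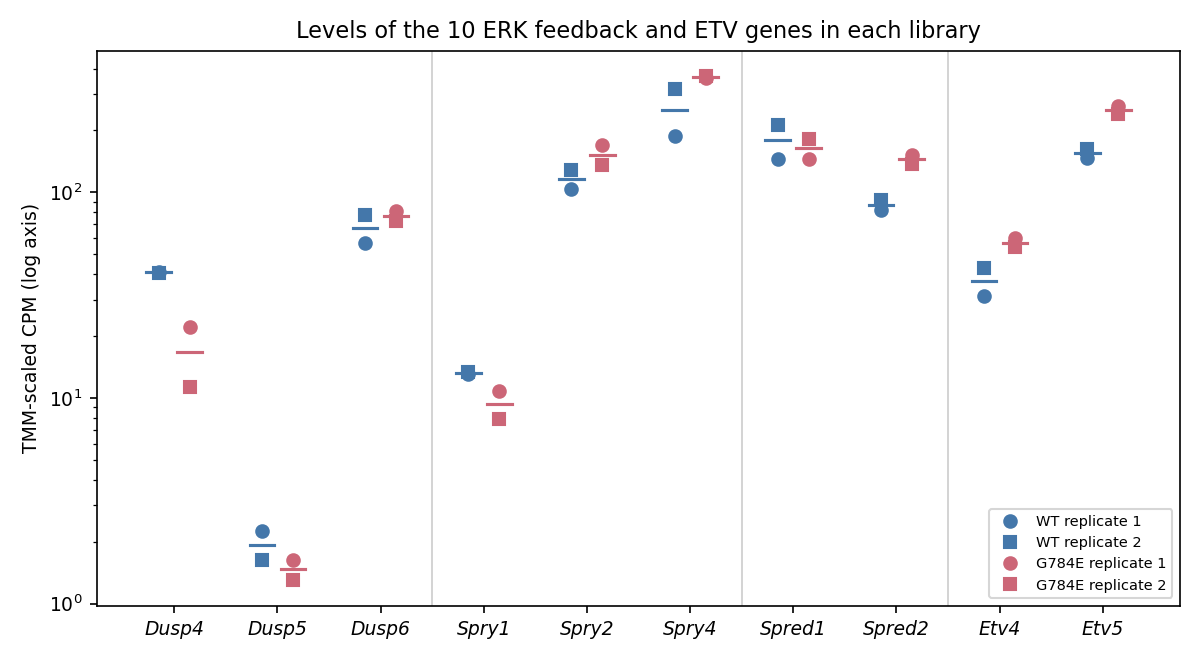
Levels of the 10 genes in the 4 libraries, in TMM-scaled counts scaled to library size (CPM) on a log axis. Circles are replicate 1, squares replicate 2, and bars the mean of each group. Dusp4 lay at 41.1 and 40.5 CPM in WT and at 22.1 and 11.3 CPM in G784E.

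Levels are given as CPM, which are counts scaled to library size by the TMM method, as the mean ± SD over 2 libraries per group. Log2 fold changes compare G784E with WT, positive where G784E is higher, and carry their standard error (SE). Gene counts per library ran from 6226145 to 10083442, so that 1 count stood for 0.102 to 0.164 CPM. The olfactory receptor genes, a measure of background in stem cells, summed to 684 and 685 CPM before TMM scaling in the libraries numbered 1 and to 193 and 282 CPM in those numbered 2. Smarca4 stood at 2423 and 2553 CPM in WT and at 3868 and 3580 CPM in G784E. It did not pass in edgeR (log2 fold change 0.58 ± 0.19 SE, adjusted p = 0.119), but passed at the same size in DESeq2 (adjusted p = 0.00808), limma-voom (adjusted p = 0.03) and edgeR with upper-quartile scaling (adjusted p = 0.0108). Those counts hold reads of both alleles and do not check the genotype. The 8 stem cell markers listed, among them Utf1, Tdgf1 and Zfp42, were present in every library, at a summed 2433 and 2779 CPM in WT and 3012 and 3042 CPM in G784E. None of the 8 passed in edgeR, DESeq2 or limma-voom, and 1 had an unadjusted p under 0.05. Of all tested genes, 11.6% had an unadjusted p under 0.05. All 13 endoderm markers, led by Sparc, Lama1 and Col4a1, fell in G784E. Their summed level was 6536 and 6874 CPM in WT and 790 and 792 CPM in G784E. Of 12 fibroblast markers, 9 were tested and none passed in edgeR, DESeq2 or limma-voom, with 1 at an unadjusted p under 0.05. Their summed level was 132 and 99.5 CPM in WT and 152 and 126 CPM in G784E, led by Col1a1, Fbn1 and Col1a2.

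Dusp4 encodes a nuclear phosphatase of ERK and related kinases. It held 311 and 399 counts in WT, or 41.1 and 40.5 CPM, and 135 and 96 counts in G784E, or 22.1 and 11.3 CPM. The WT libraries were nearly equal, and both G784E libraries lay below them. The G784E libraries differed from each other by more than counting error, with exact 95% Poisson intervals of 18.5 to 26.1 and 9.16 to 13.8 CPM. These intervals cover counting error only. The mean of Dusp4 fell from 40.8 ± 0.394 CPM in WT to 16.7 ± 7.62 CPM with G784E, a 2.47-fold fall (log2 fold change -1.31 ± 0.28 SE, 95% interval -1.87 to -0.74, adjusted p = 0.00719 by edgeR). The difference was -0.89 between the libraries numbered 1 and -1.84 between those numbered 2, on the log2 scale. Dusp4 passed under each of the 16 alternative settings run, with a largest adjusted p of 0.0419, by edgeR with upper-quartile scaling. With all 4 libraries kept, its smallest was 4.02e-07 by edgeR. That value came from a GC-corrected fit that paired libraries by number, a pairing the labels do not give. The size of the Dusp4 fall depended on the G784E library. Its log2 fold change was -1.83 when G784E replicate 1 was left out and -0.86 when replicate 2 was. The endoderm markers fell in the same libraries, and their part in the Dusp4 difference was not tested. In these bulk samples, fewer cells of a type and less RNA per cell cannot be told apart.

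Of the other phosphatase genes, Dusp6 did not pass, and Dusp5 was too low to compare with Dusp4. Dusp6, whose product is a cytoplasmic phosphatase selective for ERK, stood at 56.5 and 77.6 CPM in WT and at 81.0 and 72.2 CPM in G784E. The groups overlapped, and WT replicate 1 was the lowest library. The log2 fold change of Dusp6 was 0.19 (SE 0.21, 95% interval -0.25 to 0.63, adjusted p = 0.90 by edgeR). That interval does not include a fall as large as that of Dusp4. Dusp5, which encodes a nuclear phosphatase that binds ERK, was barely detected, with 17 and 16 counts in WT and 10 and 11 in G784E. Its levels of 2.24 and 1.62 CPM in WT and 1.64 and 1.30 CPM in G784E overlapped. The 95% interval of its log2 fold change, -2.74 to 1.94 around -0.40, includes both the Dusp4 fall and no change (adjusted p = 0.996 by edgeR). In the GENCODE annotation, 22.1% of the exonic length of Dusp5 lies over an antisense gene, and without a known strand setting those reads cannot be told apart.

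Sprouty genes lay on both sides of WT. Spry4 had the most counts of the 10 genes in every library, at 189 and 317 CPM in WT and 360 and 368 CPM in G784E. Both G784E libraries were above WT, but WT replicate 2 was closer to them than to WT replicate 1. The log2 fold change of Spry4 was 0.52 (SE 0.22, 95% interval 0.063 to 0.98, adjusted p = 0.322 by edgeR). It was 0.20 without WT replicate 1 and 0.95 without WT replicate 2, where it passed (adjusted p = 0.0462 by edgeR). Spry2 stood at 104 and 128 CPM in WT and at 170 and 135 CPM in G784E. Its groups did not overlap, though G784E replicate 2 exceeded WT replicate 2 by a log2 difference of only 0.075 (log2 fold change 0.39 ± 0.21 SE, adjusted p = 0.514 by edgeR). Spry1 went the other way, at 13.1 and 13.3 CPM in WT and 10.8 and 7.89 CPM in G784E. The groups again did not overlap, and the log2 fold change of -0.50 (SE 0.33, 95% interval -1.18 to 0.17) did not pass (adjusted p = 0.665 by edgeR). An unclassified transcript on the opposite strand covers 24.4% of the exonic length of Spry1, whose reads cannot be told apart from it.

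Neither Spred gene passed in edgeR, and the log2 fold change was 0.73 for Spred2 and -0.13 for Spred1. Spred2 stood at 81.6 and 92.3 CPM in WT and at 152 and 137 CPM in G784E. All 4 libraries were close to their group mean, and the groups did not overlap. Its mean was 87.0 ± 7.55 CPM in WT and 144 ± 10.6 CPM in G784E, a log2 fold change of 0.73 (SE 0.20, 95% interval 0.32 to 1.15) that missed the threshold in edgeR (adjusted p = 0.0527). It passed in other tests, with an adjusted p of 0.0153 by DESeq2, 0.0111 by limma-voom and 0.0409 by edgeR with a robust prior, all at a log2 fold change of 0.73. Spred2 did not pass in edgeR with RLE scaling (adjusted p = 0.079), no filter (0.154), Rn45s left out (0.0712) or a GC correction alone (0.073). Its smallest adjusted p, 2.27e-06 by edgeR, came from a GC-corrected fit that paired libraries by number, a pairing the labels do not give. The log2 fold change of Spred2 was 0.65 without WT replicate 1 and 0.82 without WT replicate 2. Spred1, the larger in counts of the pair in WT, stood at 145 and 213 CPM in WT and 145 and 182 CPM in G784E. Its groups overlapped fully (log2 fold change -0.13 ± 0.22 SE, 95% interval -0.58 to 0.32, adjusted p = 0.97 by edgeR).

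Etv4 and Etv5 lay higher in both G784E libraries than in either WT library, and neither passed in edgeR. Etv5 stood at 147 and 163 CPM in WT and at 263 and 240 CPM in G784E. The spread within each group was small beside the gap between them. The mean was 155 ± 10.999 CPM in WT and 252 ± 16.5 CPM in G784E, a log2 fold change of 0.70 (SE 0.20, 95% interval 0.29 to 1.11, adjusted p = 0.0651 by edgeR). It passed at the same size with an adjusted p of 0.00808 by DESeq2 and 0.0134 by limma-voom. Etv5 did not pass in edgeR with RLE scaling (adjusted p = 0.0981), no filter (0.231), a robust prior (0.0525), Rn45s left out (0.0831) or a GC correction alone (0.0934). Its smallest adjusted p, 2.72e-07 by edgeR, came from the GC-corrected fit that paired libraries by number. The log2 fold change of Etv5 was 0.63 without WT replicate 1 and 0.77 without WT replicate 2. Etv4 stood at 31.4 and 42.8 CPM in WT and at 59.7 and 54.2 CPM in G784E, also without overlap. Its log2 fold change was 0.61 (SE 0.22, 95% interval 0.15 to 1.07, adjusted p = 0.203 by edgeR). Etv4 passed without G784E replicate 2 (0.70, adjusted p = 0.0455 by edgeR), and did not pass in DESeq2 or limma-voom.

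**Figure D2:**
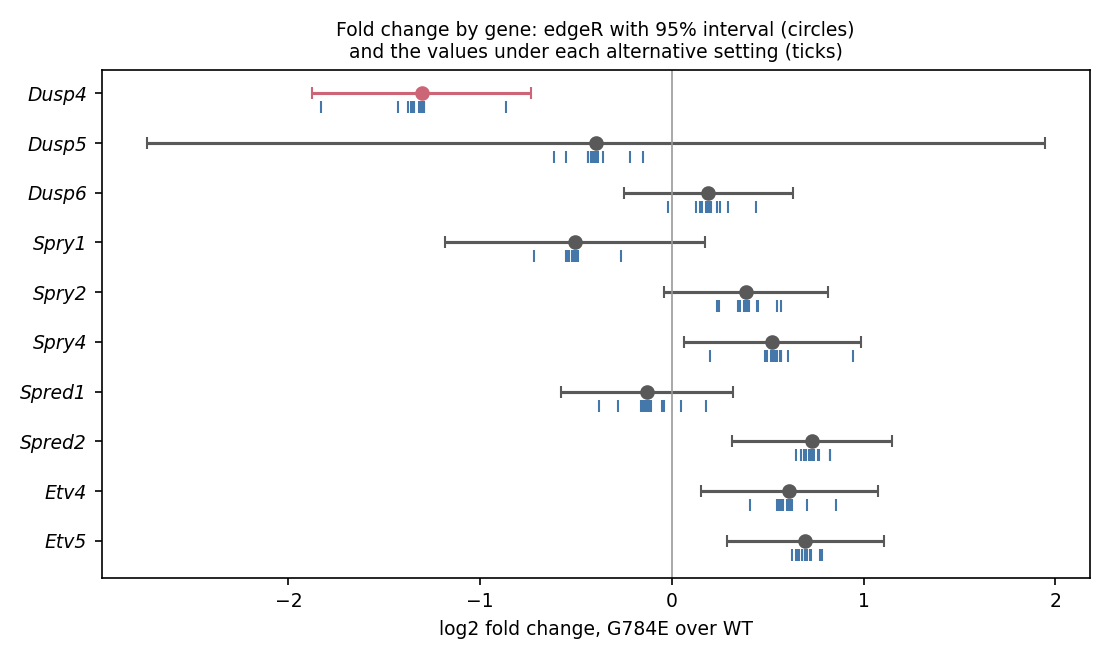
Log2 fold change of each gene, G784E over WT. Circles with bars are the edgeR value and its 95% interval, red where the adjusted p is under 0.05, and blue ticks are the values under the alternative settings. The interval of Dusp4, -1.87 to -0.74, lies below 0, and the intervals of Spry4, Spred2, Etv4 and Etv5 lie above 0 although these genes did not pass after adjustment over all genes.

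Ratios between genes of the same class within a library do not depend on how libraries are scaled. Dusp4 had a log2 ratio to Dusp6 of -0.46 and -0.94 in WT and of -1.87 and -2.67 in G784E, a shift of -1.57 (2.97-fold). The groups did not overlap for this ratio. Spred1 over Spred2 shifted by -0.84, from 0.83 and 1.20 in WT to -0.068 and 0.41 in G784E. Spry1 shifted by -0.90 against Spry2 and by -1.08 against Spry4, both without overlap. Etv4 over Etv5 moved by -0.065, from -2.23 and -1.93 in WT to -2.14 and -2.15 in G784E, with the G784E libraries inside the WT range. Spry2 over Spry4 also overlapped, with a shift of -0.18. Each of the 8 pairs was tested with a two-sided exact permutation test over libraries. With 2 libraries against 2, the smallest p such a test can give is 0.333, so no ratio could pass. The exact p was 0.333 for the 6 pairs without overlap, 0.667 for Spry2 over Spry4 and 1 for Etv4 over Etv5, and the smallest value after Benjamini-Hochberg adjustment over the 8 pairs was 0.444.

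**Figure D3:**
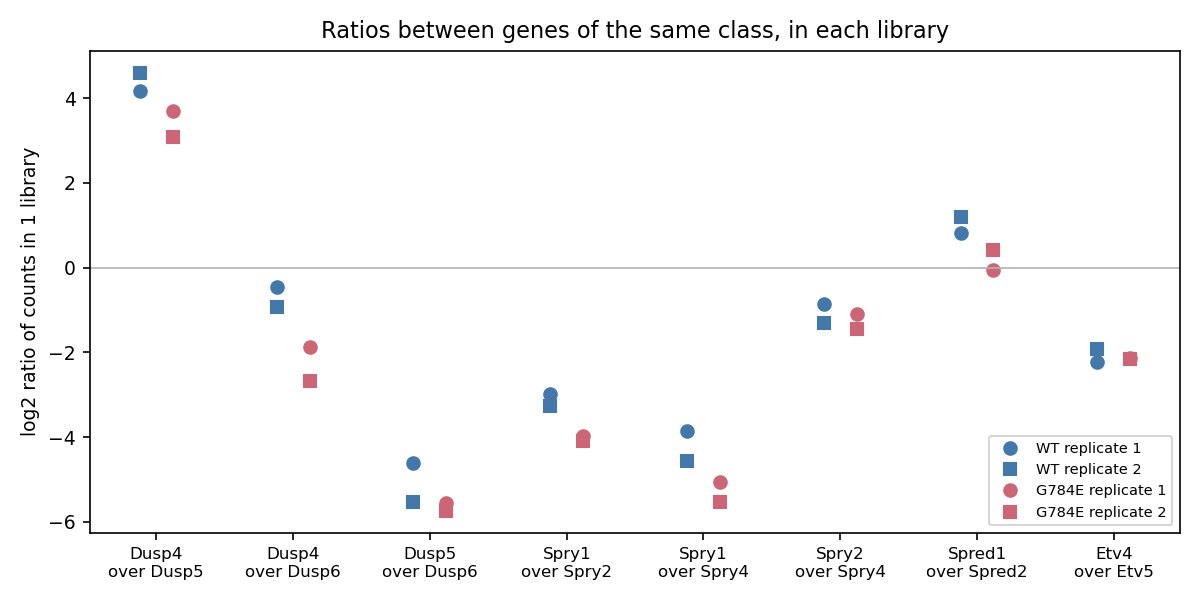
Log2 ratio of the counts of 2 genes of a class within each library, for the 8 pairs. Blue is WT and red G784E, with circles for replicate 1 and squares for replicate 2. The ratio of Dusp4 to Dusp6 is lower in both G784E libraries (-1.87 and -2.67) than in both WT libraries (-0.46 and -0.94), while Etv4 over Etv5 overlaps.

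Levels between genes were compared per kilobase of exon, with exon lengths from the GENCODE annotation of build GRCm38, which is not the mm9 build of the count tables. In WT, Spry2 (55.7 CPM per kb) and Spry4 (53.2 CPM per kb) were highest. They were followed by Etv5 at 37.8, Spred1 at 26.4, Dusp6 at 21.4, Spred2 at 18.8, Dusp4 at 14.9, Etv4 at 11.96, Spry1 at 4.54 and Dusp5 at 0.782 CPM per kb. Spry2 and Spry4 changed order between the 2 WT libraries, so this pair cannot be ordered. Within each WT library, Spry4 lay above Etv5, Spred1 above Dusp6 and Dusp6 above Spred2. The last of these gaps was small in WT replicate 1, at 18.0 against 17.7 CPM per kb. Across the 2 libraries, the ranges of Spred1 and Dusp6 and of Dusp6 and Spred2 overlapped. The lower Spry4 library and the higher Etv5 library were equal at 39.7 CPM per kb. In G784E, Spry4 (76.5 CPM per kb), Spry2 (73.0 CPM per kb) and Etv5 (61.4 CPM per kb) again led, with Spry4 and Spry2 overlapping. Spred2, at 31.3 CPM per kb, lay above Dusp6 at 24.5 and Spred1 at 24.1 CPM per kb in both libraries, and the latter pair overlapped. Dusp4, at 6.09 CPM per kb, lay below Etv4 at 18.3 CPM per kb, the reverse of their order in WT. Spry1 and Dusp5 were the lowest in G784E as well, at 3.22 and 0.593 CPM per kb.

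Among 11 further genes of the same 4 families, 9 were tested and 1 fell, against 1.89% of all tested genes. Dusp9, which encodes another cytoplasmic ERK phosphatase, stood at 124 and 122 CPM in WT and 71.0 and 70.7 CPM in G784E. The libraries within each group were nearly equal. Dusp9 fell 1.74-fold (log2 fold change -0.80 ± 0.20 SE, adjusted p = 0.0267 by edgeR), and leaving out either WT library ended the call, at an adjusted p of 0.24 (-0.79, replicate 1 out) and 0.155 (-0.81, replicate 2 out) by edgeR. The phosphatase genes Dusp1, Dusp8, Dusp10 and Dusp16 had log2 fold changes of -0.11, -1.35, -1.49 and -0.54, and Dusp7 and Dusp14 of 0.49 and 0.21. None of these 6 passed. Spred3, at 0.22, and Etv1, the third gene of the ETV4 subfamily, at -0.25, did not pass either. Dusp2, with 0 to 15 counts per library, and Spry3, with no count in any library, were too low to test. A count of 0 allows up to 3 counts, or 0.305 to 0.491 CPM per library.

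Among genes from the receptor down to ERK and the kinases just below it, adaptor and RAS genes changed in both directions while the kinases did not pass. Of 17 tested genes for receptor adaptors and RAS activation, 2 rose and 1 fell, against 0.672% and 1.89% of all tested genes. The median log2 fold change of the 17 was 0.023. Gab1, a docking protein below receptor tyrosine kinases, rose 2.12-fold, from 320 and 386 CPM in WT to 686 and 813 CPM in G784E (adjusted p = 0.00217 by edgeR). Mras, a RAS-related GTPase that acts with SHOC2 on RAF, rose from 21.9 and 21.9 to 54.7 and 38.8 CPM (log2 fold change 1.09 ± 0.24 SE, adjusted p = 0.0104 by edgeR). Leaving out WT replicate 1 or 2 ended this call, with edgeR's adjusted p at 0.111 and 0.0888 and the size still 1.09. The RAS-related gene Rras fell 2.56-fold, from 18.8 and 21.8 to 7.04 and 8.72 CPM (adjusted p = 0.0117 by edgeR), and did not pass once WT replicate 2 was left out (-1.24, edgeR's adjusted p 0.22). A list of 15 genes held RAF, MEK and ERK kinases, their scaffolds, and Rps6ka1, Rps6ka2 and Rps6ka3, whose kinases lie below ERK. All 15 were tested and none passed in edgeR, DESeq2 or limma-voom, with a median of 0.066. At an unadjusted p under 0.05 there were 1 higher and 1 lower, against 5.14% and 6.48% of all tested genes. These were Ksr1, at a log2 fold change of 1.27 (SE 0.45), and Iqgap1, at -0.48 (SE 0.20). Iqgap1 is a scaffold gene with one of the highest levels of the list, and Ksr1 is named here after its values were seen.

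Of 16 other regulators of RAS and ERK, mostly inhibitors, 1 fell, against 1.89% of all tested genes, and the median was 0.0078. The gene that fell was Flrt3, which encodes a membrane protein that binds FGF receptors and is known to promote rather than limit their signalling. Flrt3 fell from 66.8 and 82.6 CPM in WT to 11.9 and 21.3 CPM in G784E, which was 4.44-fold lower (log2 fold change -2.15 ± 0.26 SE, adjusted p = 9.1e-06 by edgeR). The RAS inhibitor gene Nf1 and the ubiquitin ligase gene Cbl, the most abundant of the list, had log2 fold changes of 0.016 (SE 0.21) and -0.0028 (SE 0.21).

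Of 6 repressors of ERK target genes, Erf rose, against 0.672% of all tested genes. ERF is an ETS repressor that ERK moves out of the nucleus by phosphorylation. Erf stood at 42.3 and 44.1 CPM in WT and at 123 and 100.01 CPM in G784E, 2.58-fold higher (log2 fold change 1.37 ± 0.21 SE, adjusted p = 0.000232 by edgeR). Cic stood at 148 and 144 CPM in WT and 163 and 155 CPM in G784E and did not pass (0.13 ± 0.20 SE, adjusted p = 0.961 by edgeR), nor did its partner gene Atxn1l (-0.23 ± 0.21 SE).

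Immediate early and other ERK target genes, a list that overlaps none of the 10, had a median of -0.28 over 28 tested genes, with 1 higher and 1 lower in edgeR. At an unadjusted p under 0.05 there were 2 higher and 10 lower, against 5.14% and 6.48% of all tested genes. Myc rose 2.79-fold, from 55.5 and 105 to 230 and 220 CPM (adjusted p = 0.000455 by edgeR). Plaur, the urokinase receptor gene, fell 2.65-fold, from 21.7 and 24.8 to 7.36 and 10.01 CPM (adjusted p = 0.00594 by edgeR), and did not pass once WT replicate 2 was left out (-1.31, edgeR's adjusted p 0.126). Of 17 tested FGF ligand and receptor genes, Fgf17 rose 3.87-fold, and the receptor gene Fgfr2 (3.49-fold) and the ligand gene Fgf10 (4.79-fold) fell. The Fgf10 call was lost by limma-voom (-2.21, adjusted p 0.0669) and in edgeR by leaving out either WT library (-2.16 and adjusted p 0.176 for replicate 1, -2.35 and 0.131 for replicate 2). Fgf4, the main FGF ligand of stem cells, stood at 149 and 193 CPM in WT and 171 and 183 CPM in G784E and is named here after its values were seen (0.047 ± 0.20 SE). The part of the endoderm markers in the differences of these pathway genes was not tested. Over all 7 pathway lists, 11 of 108 tested genes passed, 5 higher and 6 lower. Of all tested genes, 2.56% passed, 0.672% higher and 1.89% lower. The lists were chosen with earlier results of these data known.

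**Figure D4:**
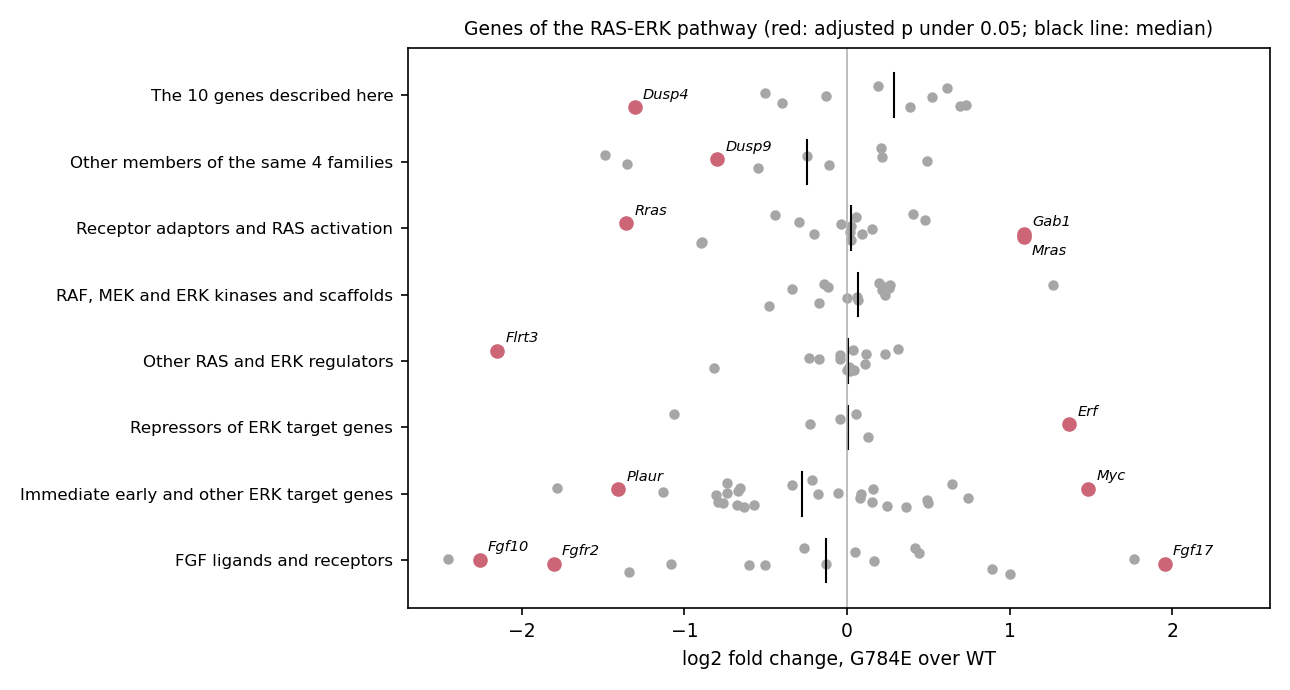
Log2 fold change of the 10 genes and of each list of other RAS-ERK pathway genes, G784E over WT. Each point is a gene, red with its name where the edgeR adjusted p is under 0.05, and black lines are medians. Points are spread vertically at random for legibility. The medians of the lists run from -0.28 to 0.066 and that of the 10 genes is 0.29.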

How the data were processed

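RNA-seq was made from 4 libraries, 2 G784E and 2 WT, grouped and numbered by their labels. The authors deposited raw read counts per gene symbol, 1 table per library, in whole numbers. Per the submitters' processing notes, build mm9 and the tools Bowtie2 2.1.0, HTSeq, DESeq2 and CASAVA 1.8.2 were used. Their roles, the strand setting, the annotation and the counting mode are not given in the sources used. Summary rows that name no gene held 83.3% to 88.7% of each table, reads without a unique place 55.4% to 61.8%, and they were left out, so reads that fit several similar genes are missing. The ribosomal gene Rn45s held 10.02% to 16.0% of gene counts. The 2 libraries of a group differed beyond sampling noise (chi-square per degree of freedom 12.4 and 7.89).

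Genes were tested by quasi-likelihood in edgeR 4.0.16 and R 4.3.3 (TMM; filterByExpr with minimum count 10 and minimum total 15; group alone, 2 residual degrees of freedom). It kept 15763 genes, with Benjamini-Hochberg adjustment over all of them and a threshold of 0.05. The SE was the log2 fold change divided by the square root of F. In-class ratios used counts plus 0.5. The procedure was tested on simulated data. The alternatives were scaling by RLE or upper quartile, no filter, a filter of 1 CPM in 2 libraries and 50 counts, DESeq2 1.42.0, limma-voom (limma 3.58.1), a robust prior, a replicate block, no Rn45s, a GC correction (lowess span 0.3, GENCODE M21, 97.0% of genes matched by symbol) alone and with the block, and each library left out with the tested genes kept. A filter of 5 CPM on the mean was added after seeing the data. Where 1 library is left out, the one that remains in its group is taken to vary as much as the other group's.

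The 10 genes and the pathway and marker lists were chosen with earlier results of these data known. Named are all 10, their tested relatives, up to 2 risen and 2 fallen genes per pathway list by smallest adjusted p (with fewer than 2 passing, up to 2 with the highest level), the 3 highest markers per marker list in WT, and Smarca4. A gene that this rule would name is not reported here.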

Additional observations from a re-analysis of the deposited data

How the results depend on the processing

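The number of the 10 genes called, 1 in the analysis as reported, was 3 with upper-quartile scaling, the stricter filter, DESeq2, limma-voom or genes at a mean of 5 CPM or more, 2 with a robust prior, and 1 to 4 with a library left out. Dusp4 was called in each of these. Over all tested genes, the share called was 2.56% as reported, 2.79% with upper-quartile scaling and 2.85% with the stricter filter. It was 3.49% by limma-voom, 5.87% among genes at a mean of 5 CPM or more and 2.58% with a robust prior. DESeq2 called 368 genes, 3.2% of those to which it gave an adjusted p. The number of genes called over the whole table, 404 (298 lower and 106 higher), was 185 to 839 with a library left out (156 to 532 lower and 29 to 307 higher). The higher calls were 186 in limma-voom and 200 among genes at a mean of 5 CPM or more. Pathway list calls, 11 as reported, were 6 to 15 with a library left out. Directions held in every alternative for 8 of the 10 genes. With a library left out, Dusp6 ran from -0.019 (WT replicate 1 out) to 0.44, and Spred1 from -0.38 to 0.046 (G784E replicate 1 out) and 0.18 (WT replicate 2 out). Dusp1 ran from -0.19 to 0.0011 (G784E replicate 2 out). With a library left out, the Spred median ran from 0.13 to 0.50, the shift of Spry2 over Spry4 from -0.41 to 0.040 and that of Etv4 over Etv5 from -0.22 to 0.085. The cause of these moves was not tested.

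The replicate block treats libraries with the same number as a pair, which the labels do not say they are. Deviations of the libraries from their group means correlated at 0.49 between same-numbered libraries, over genes. With the replicate block, 1204 genes were called (658 lower and 546 higher), 5 of the 10 genes and 21 in the pathway lists. The 5 were Dusp4, Spry4 (0.57, adjusted p 0.00377), Spred2 (0.73, 0.000532), Etv4 (0.62, 0.0363) and Etv5 (0.70, 0.000176). Smarca4 also passed (0.58, adjusted p 1.59e-05). With the replicate block and GC correction, 1486 were called (690 lower and 796 higher), 6 of the 10 genes and 23 in the lists, the sixth being Spry2 (0.45, adjusted p 0.0128). Both fits have 1 residual degree of freedom. Depth limits Dusp5, with 10 to 17 counts per library.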
